A study of Danio rerio with 3 samples.

Results

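Retina cells of the zebrafish larva were taken as the cell type that the authors had annotated as retina in each of 3 single-cell libraries, and each library held 1 retina table of all reads and 1 of labelled reads. The unit of description was the gene with at least 250 reads in the retina table: 1904 of 14980 genes after dissociation, 1649 of 12424 after sorting and 1913 of 15884 after sorting and ice, with 1495 genes above the limit in each library, out of 25019 genes in the tables of any cell type. The limit has many genes on both sides of it, with 137, 111 and 141 genes at 250 to 275 reads and 162, 142 and 180 genes at 225 to 249 reads. For every library, 10 whole AB wild-type larvae at 48 hpf underwent 30 min of dissociation at 37°C with 10 mM 4-thiouridine (4sU) in the buffer, a uridine analog that enters newly made RNA. Cells of the first library (dissociation) were fixed in methanol at once. Those of the second (FACS) passed fluorescence-activated cell sorting, without 4sU during the sort but with 4sU in the cooled receiving tube, before fixation. Those of the third (FACS and ice) were sorted in the same way and then kept on ice for 30 min. Both sorted samples were washed after the sort and resuspended without added 4sU, so the buffer of the ice step held none. Larvae were pooled within a library and no untreated library was among the samples, so the dissociation library is the lowest exposure and not a 4sU-free control.

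The retina is the neural layer of the eye. Photoreceptors turn light into a change of membrane voltage through opsins, a G protein (transducin) and a phosphodiesterase, bipolar cells carry the signal inwards, horizontal and amacrine cells modulate it, and ganglion cells send it to the brain, while Müller glia span the layer. All of them arise from a common pool of dividing progenitors, ganglion cells first and bipolar cells and Müller glia late. At 48 hpf the central zebrafish retina already holds postmitotic cells of these classes, and its photoreceptors are only starting to mature.

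Labelling is read as T-to-C substitutions, because 4sU treated with iodoacetamide is read as C. The T-to-C rate of a gene is the share of T positions read as C, as an average over the reads of the gene. A second table counts entries with 2 or more such substitutions. Levels are given as reads per 1000000 reads of the retina table (rpm), and groups of values follow the order dissociation, FACS, FACS and ice. The retina tables held 8338350, 8309106 and 8474378 reads (4.29, 4.13 and 4.14% of the reads in all cell type tables) and 34266, 38720 and 53565 labelled entries. Each preparation had 1 library, so there is no replicate error, differences between preparations carry no test, and all intervals are 95% intervals for counting error. Reads are not independent molecules, which makes these intervals too narrow.

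The 4 markers of the retina were highest in the table labelled retina in every library. Transcripts of crx, the homeobox factor that drives photoreceptor differentiation, stood at 304 (292 to 316), 403 (389.5 to 417) and 268 (258 to 279.7) rpm, and the highest of the 11 other cell types shared by all libraries reached 29.3, 29.4 and 12.4 rpm. Its relative otx5 stood at 224, 250.4 and 214 rpm against 14.8, 5.34 and 9.42 rpm. Both lay over 10 times above any other type. The bipolar cell factor vsx1 stood at 172, 184 and 172 rpm and exceeded the next type 7.46, 7.28 and 14.3-fold. For neurod4, a basic helix-loop-helix factor of differentiating neurons, the level was 109.6, 98.1 and 121 rpm, and the nervous system came next with 32.4, 18.6 and 19.8 rpm. Thus neurod4 separated the retina least, by 3.38, 5.27 and 6.09-fold. Cells were grouped by their expression, so these levels, and all levels against other cell types below, describe the grouping and were not tested.

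Photoreceptor genes formed the clearest program of the retina tables. Of 53 listed genes, 48 occurred in the tables and 19, 18 and 21 passed 250 reads, and all that passed were above the nervous system in that library, as were 46.2, 42.4 and 39.2% of all genes above the limit. Markers such as crx are on this list, so its counts and sums are not independent of the marker levels above. Summed over the list, the level was 2867, 2492 and 2568 rpm in retina and 224, 148 and 147 rpm in the nervous system. Pigment cells came next with 549, 1045 and 819 rpm, and there rbp4l, a retinol-binding protein gene of the list, alone had 725 rpm as a mean of the libraries. By the mean of the libraries the highest was pde6gb, an inhibitory gamma subunit of the phosphodiesterase, with 497, 325 and 442 rpm against 51.1, 9.78 and 16.3 rpm. The cone transducin subunit gngt2a followed with 475, 329 and 275 rpm against 8.78, 2.2 and 2.4 rpm, and was highest after dissociation. Recoverin (rcvrn2), a calcium sensor of photoreceptors, stood at 108, 61.3 and 56.2 rpm and below 1 rpm in the nervous system. Among the regulators, nr2e3, a nuclear receptor of photoreceptor precursors, was at 72.2, 87.4 and 53.7 rpm. The proneural factor neurod1 reached 161, 173 and 128 rpm against 44.9, 31.6 and 38.0 rpm in the nervous system, and six7, a homeobox gene needed for cone opsin expression in zebrafish, 72.0, 58.0 and 48.3 rpm. Of the rod genes, the transducin subunit gene gnat1 had 36, 21 and 84 reads and the arrestin gene sagb 35, 20 and 90 reads, both under the limit everywhere.

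The visual pigment of rods and a cone arrestin passed the limit in 1 library only, and the matrices of single cells show where those reads lay. The rod opsin gene rho had 0, 61 and 1688 reads in the retina tables, and arr3a, a cone arrestin, had 16, 26 and 269 reads. In the FACS and ice library 405 of the 440 UMIs (unique molecular identifiers, which count molecules) of rho fell in 1 cell, which also held 17 of 28 UMIs of gnat1 and 13 of 30 UMIs of gngt1, the rod transducin gamma gene. That cell had 5712 UMIs and none of crx, otx5 or arr3a. For arr3a, 62 of its 100 UMIs in that library fell in another cell. So 1 cell held most of the transcripts of either gene in that library, and the tables do not record which cells they sum.

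The genes nearest to exclusive for the retina were chosen by their level over the highest other cell type, averaged over the libraries. Phototransduction and photoreceptor genes made up much of the top 10: gngt2a and its paralog gngt2b, otx5, tulp1a (a tubby-family gene whose human relative is mutated in retinal degeneration), syt5b (a synaptotagmin) and rs1a, which encodes retinoschisin, an adhesion protein of the retina. For rs1a the level was 181, 112 and 133 rpm, against 5.22, 0.0436 and 2.69 rpm in the nervous system. The other members were arl3l1, a small GTPase of the Arf-like family, the thioredoxin-related tmx3a, and zgc:103625 and si:ch73-28h20.1, which carry no descriptive name. The level of zgc:103625 was 119, 73.5 and 99.8 rpm and that of si:ch73-28h20.1 was 289, 198 and 211 rpm. Of the 10, 7 were highest after dissociation alone, otx5 and syt5b after FACS, and tulp1a after FACS and ice (68.4, 75.9 and 105 rpm).

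Most genes of the bipolar and horizontal lists above the limit were also higher in retina, although few of either list were covered. Of 20 bipolar genes 5, 6 and 7 passed 250 reads, of which 5, 6 and 6 were above the nervous system, and the 5 that passed in every library were above it in each, as were 392 of all 1483 genes with 250 reads in every library (26.4%). The exception was bhlhe22 after FACS and ice, a helix-loop-helix gene, at 44.5 rpm against 66.4 rpm. Markers such as vsx1 are among the bipolar genes, so these counts are not independent of the marker levels. The G protein beta subunit gene gnb3a had 243, 386 and 284 rpm against 17.9, 6.32 and 4.42 rpm, and lay highest after FACS. The helix-loop-helix gene bhlhe23 stood less apart (51.7, 33.6 and 36.2 rpm against 19.7, 27.6 and 22.2 rpm). The adapter gene samsn1a was at 33.0, 71.4 and 43.8 rpm, and macrophages held more of it, 75.4 rpm as a mean of the libraries. Of the 9 genes listed for horizontal cells 2 passed in each library. These were calb2b (calretinin), at 120.3, 170.1 and 147 rpm against 17.6, 30.9 and 26.7 rpm, and the homeobox gene prox1a. The latter had 58.2, 44.5 and 52.4 rpm against 20.7, 11.9 and 15.3 rpm. Both stood above the nervous system in all libraries. Classes were assigned by the lists, and the data do not show which retinal class held these transcripts.

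Genes of the ganglion and amacrine lists above the limit showed the opposite order, apart from isl1 after FACS. Of 22 ganglion cell genes 3, 4 and 3 passed, beside 1904 of 14980, 1649 of 12424 and 1913 of 15884 retina genes. The summed level was 297, 254 and 462 rpm in retina and 1095, 1575 and 1687 rpm in the nervous system. The growth cone gene gap43 was at 92.2, 76.9 and 114 rpm against 306, 501 and 519.5 rpm, and ebf3a, a factor of differentiating neurons, at 43.8, 42.5 and 112 rpm against 225, 310.1 and 415 rpm. Retina was thus the lower of the 2 types for them. The homeobox gene isl1, of ganglion and other neurons, passed after FACS alone, at 33.7 rpm against 28.2 rpm. The amacrine list reached the limit with 1 gene at most, meis2b, which was at 32.3, 25.9 and 50.6 rpm against 98.7, 139 and 157 rpm. Of 9 genes of neurons in general that passed in every library, 7 were lower in retina in each, among them elavl3, stmn1b and tubb5, beside 624 of all 1483 genes (42.1%). These genes also mark brain neurons, so the order says nothing of ganglion or amacrine cells that the annotation may have placed in the nervous system.

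Progenitor and glial genes were mixed. The fatty acid binding protein gene fabp7a, known from radial glia and neural progenitors, was among the most abundant of the table with 13788, 9056 and 10144 rpm, against 10045, 4893 and 3198 rpm in the nervous system. The eye field gene six6b reached 48.0, 51.3 and 61.4 rpm against 27.1, 16.9 and 24.5 rpm, while mab21l2, an eye morphogenesis gene, was lower in retina (55.6, 34.5 and 62.2 rpm against 147, 196 and 234 rpm). Among glial genes rlbp1a, the retinaldehyde-binding protein of Müller glia and pigment epithelium, was at 42.8, 21.8 and 25.7 rpm against 2.78, 4.57 and 0.954 rpm, whereas glulb (glutamine synthetase) was alike in both (48.2, 38.0 and 35.0 and 43.0, 32.8 and 43.3 rpm). In both sorted libraries rlbp1a was under the limit of 250 reads. The Müller glia list summed to 166, 148 and 146 rpm in retina and 269, 322 and 247 rpm in the nervous system. Pigment cells were highest for it, with 750, 493 and 607 rpm. No gene of the retinal pigment epithelium list passed 250 reads. From the pineal organ, which shares photoreceptor genes with the retina, aanat2, the enzyme that times melatonin synthesis, had 47.4, 27.9 and 19.4 rpm and 0.525, 0.61 and 0.0222 rpm in the nervous system. In both sorted libraries aanat2 was under the limit of 250 reads, and another gene of the pineal list passed it. Genes of brain regions passed the limit 0, 1 and 0 times. Their sum was 122, 108 and 182 rpm against 461, 725 and 846 rpm in the nervous system. Of 6 proneural genes above the limit in every library, neurod1 and neurod4 were higher in retina and hes6, sox4a, sox11a and sox11b lower.

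**Figure D1:**
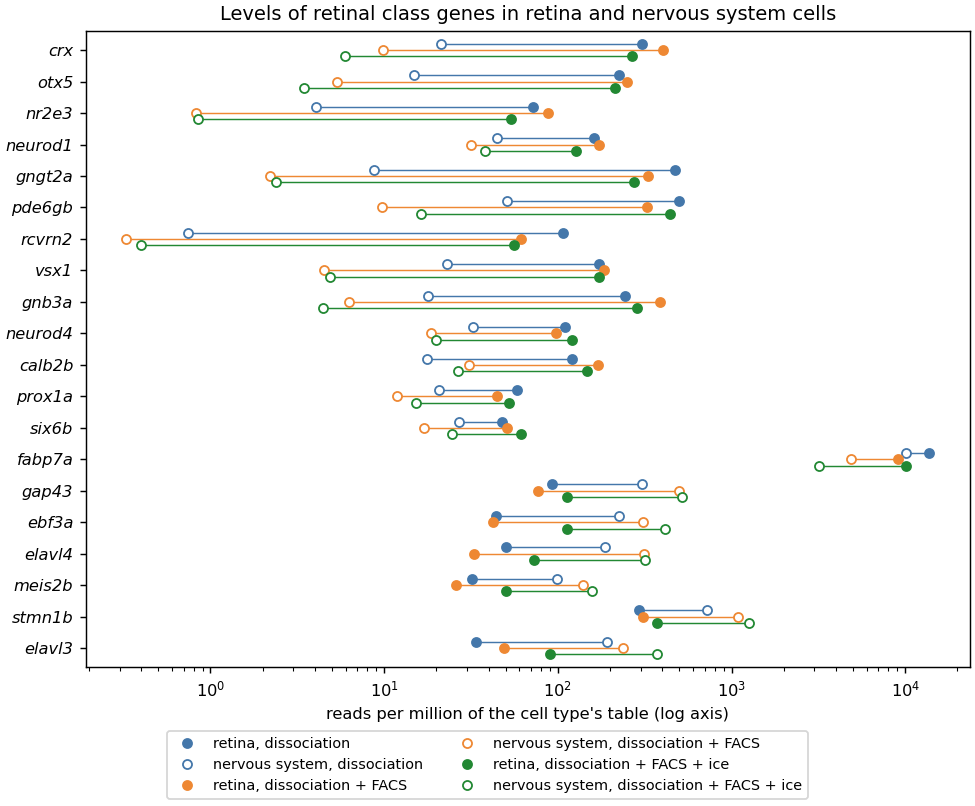
Levels of 20 retinal class and neuronal genes in rpm on a log axis, with 1 row per gene, filled circles for retina, open circles for the nervous system and 1 colour per library. Genes of the photoreceptor, bipolar and horizontal lists such as crx and calb2b lie to the right of their nervous system values in all 3 libraries. The genes gap43, ebf3a, meis2b and elavl3 lie to the left.

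Genes of DNA replication and mitosis were well covered in the retina tables. Of 31 genes 17, 17 and 20 passed. Of these, 9, 17 and 19 exceeded the nervous system, as did 46.2, 42.4 and 39.2% of all genes above the limit. The order of the 2 types thus depended on the library. After FACS and ice the epidermis was above the retina, with a list sum of 2593 rpm against 2192 rpm. The replication clamp gene pcna was at 238, 294 and 334 rpm in retina and 383, 124 and 123 rpm in the nervous system, and rrm2, a subunit of the enzyme that makes deoxynucleotides, at 285, 353 and 373 and 332, 75.1 and 89.7 rpm. In the nervous system both were lower in the sorted libraries, and in retina neither was. Mitotic genes of the retina were highest after dissociation. Levels were 396, 197 and 131 rpm for ube2c, 149, 95.8 and 64.5 rpm for cdk1 and 175, 117 and 111 rpm for mki67. In the nervous system ube2c was also highest after dissociation, and lower still in the sorted libraries, at 237, 20.7 and 22.3 rpm. Over the 15 genes above the limit in each library, the median ratio of FACS and ice over dissociation was 0.637. It was 0.978 over all 1483 genes. Of the 15 genes, 8 were past 1.5-fold lower and 0 past 1.5-fold higher, beside 6.07 and 6.54% of all genes. Fewer cells of a kind and less RNA per cell cannot be told apart in these tables.

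The tables give no number of cells, so cells of the matrices with UMIs of at least 2 of the 4 markers were counted. They were 646 of 11043 cells (5.85%, 5.42 to 6.3%) after dissociation, 299 of 4609 cells (6.49%, 5.79 to 7.24%) after FACS and 683 of 9550 cells (7.15%, 6.64 to 7.69%) after FACS and ice. In blood cells, which should lack the markers, the same rule met 3.16, 2.32 and 3.34% of cells at 9646, 9194 and 7778 median UMIs, against 4594, 3574 and 5530 in the marker-positive cells. The share in blood cells is the background of this rule. With the 8547, 4187 and 8426 cells of at least 1000 UMIs thinned to that depth, and the 2496, 422 and 1124 shallower cells left out, the shares were 1.8, 2.05 and 1.86%, against 7.24, 6.76 and 7.93% in the same cells before thinning, and no order between preparations can be read. Between 11 and 28 cell barcodes were shared by any pair of libraries. Doublets were not removed.

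Most genes of the retina had similar levels in the 3 preparations, and heat shock genes stood out upwards. Over 1483 genes with at least 250 reads in every library, joined names left out, 50 genes (3.37%) were past 1.5-fold higher and 163 (11.0%) past 1.5-fold lower after FACS than after dissociation, and 97 (6.54%) and 90 (6.07%) after FACS and ice. With reads scaled by the trimmed mean of M-values (TMM) the FACS counts were 91 higher and 88 lower, so the excess depended on the scaling. TMM centres the ratios on the bulk of the genes, so near-equal counts cannot show where the excess came from. Its source was not tested. The median ratio over all genes was 0.891 after FACS and 0.978 after FACS and ice. Of 15 heat shock and chaperone genes, 7 were past 1.5-fold higher after FACS and ice and 0 past 1.5-fold lower. The co-chaperone gene dnajb1b had 67.2, 186 and 426 rpm, so that the last value was 6.34-fold of the first, the largest ratio of the 1483 genes. Levels of hsp70.1 were 178, 353 and 518 rpm and those of hsp70l 372, 705 and 977 rpm, both stepwise higher with each added handling step. The 3 genes hsp70.1, hsp70.2 and hsp70.3 are near-identical copies whose reads may have been split between them. In the nervous system of the same libraries hsp70.1 was at 233, 659 and 781 rpm and dnajb1b at 75.1, 363 and 582 rpm, and 12 of the 15 genes were lower in retina than there in every library and 0 were higher in every library, beside 42.1 and 26.4% of all genes. The constitutive chaperone gene hspa8 was nearly level at 1672, 1556 and 1744 rpm, and 12 reference genes of the cytoskeleton, ribosome and glycolysis had a median ratio of 0.905 after FACS and ice.

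The 5 smallest ratios after FACS and ice were those of actc1b, pfn1, si:dkey-16p21.8, cyt1l and ube2c. The first 4 had their highest level in muscle, macrophages or pharynx, and ube2c is a mitotic gene. Muscle actin (actc1b) was at 1423, 40.3 and 33.9 rpm and 1226, 39.0 and 35.0 rpm in the nervous system, and the muscle list summed to 3383, 101 and 75.8 rpm. Lens genes, 28 of which passed 250 reads after dissociation and 0 after sorting, summed to 4380.5, 40.8 and 30.0 rpm in retina and 5771, 44.2 and 30.6 rpm in the nervous system. The unsorted library thus carried muscle and lens transcripts in both types at similar levels. Blood genes summed to 15322, 19032 and 15604 rpm in retina and 8736, 40349 and 12136 rpm in the nervous system, epidermal genes to 1088, 293 and 394 rpm, and macrophage genes to 2.64, 1.68 and 2.36 rpm. Genes of cartilage (21.9, 31.9 and 56.5 rpm) were low beside 4560 rpm in the cartilage cells of the first library. Those of pigment cells (201, 199 and 256 rpm) were low beside 21182 rpm in its pigment cells. Of the 9 mitochondrial transcripts above the limit in each library, 9 were past 1.5-fold lower after FACS and 8 after FACS and ice, with mt-co2 at 8118, 2468 and 4392 rpm. The part of these transcripts in the ratios of other genes was not tested. Among neuronal genes elavl3 was the 1 with a ratio in the top 5, at 33.7, 48.7 and 90.5 rpm (2.69-fold, against 1.93-fold in the nervous system).

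The median T-to-C rate of the retina was highest after FACS and ice, and little higher after FACS than after dissociation. Over the 1495 genes above the limit in each library the median T-to-C rate was 0.0948, 0.106 and 0.139%, which is 1.12-fold and 1.46-fold of the dissociation library. For A-to-G, which 4sU does not cause, the medians were 0.0653, 0.0703 and 0.072% (1.08-fold and 1.1-fold), and for C-to-T, the most frequent type, 0.208, 0.22 and 0.224%. Of the 12 substitution types T-to-C thus had the largest ratio, followed by A-to-C with 1.16-fold. From dissociation to FACS and ice, 974 of 1483 genes (65.7%) had a higher T-to-C rate, 345 (23.3%) over 2-fold. Over the 1495 genes, A-to-G was higher in 55.3% and A-to-C in 57.5% in the same comparison. After FACS alone T-to-C was higher than after dissociation in 54.4% of the 1495 genes, and A-to-G in 51.5%. With the genes of each library taken separately the medians were 0.104, 0.114 and 0.160%, and the retina ranked 3 of 12 cell types in each library, behind the nervous system and the epidermis. These rankings use a different gene set for every type.

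**Figure D2:**
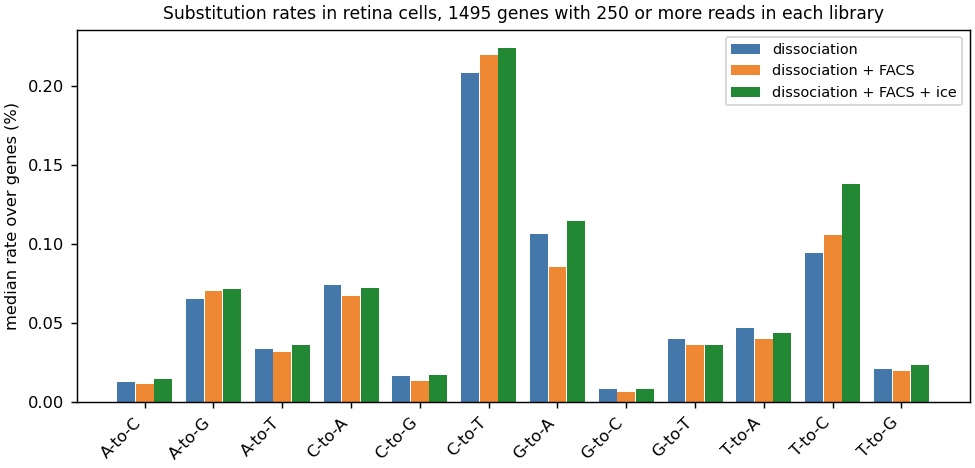
Median rate of each of the 12 substitution types in retina cells, in percent, over the same 1495 genes, with 1 bar per library. C-to-T is the highest type in each library, and T-to-C shows the largest step, from 0.0948% after dissociation to 0.139% after FACS and ice.

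Among the class genes, vsx1 and the neurod factors had the largest steps in T-to-C rate between preparations. The T-to-C rate of vsx1 was 0.438, 1.01 and 1.6% with 15, 11 and 64 labelled entries, while its A-to-G rate was 0.0778, 0.0784 and 0.0675%. The rate of neurod4 was 0.342, 0.545 and 1.43% and that of neurod1 0.346, 0.562 and 1.09%. All 3 were highest after FACS and ice, over 3-fold above dissociation. For crx the rate was 0.113, 0.156 and 0.215%, below its A-to-G rate of 0.386, 0.546 and 0.545%, and for otx5 0.041, 0.0523 and 0.126% with 0, 0 and 5 labelled entries. Of the 18 photoreceptor genes, 8 were over 2-fold higher after FACS and ice, of 5 bipolar genes 2, and of 6 proneural genes 5, beside 23.3% of all genes. The proneural 5 included hes6, a helix-loop-helix gene downstream of proneural factors, at 0.0266, 0.0146 and 0.0788%, a rate near the floor. The high rates of syt5b (1.28, 1.36 and 0.752%), pde6gb (0.969, 0.677 and 0.942%) and tulp1a (0.709, 0.847 and 0.655%) did not increase with handling, and in the nervous system syt5b had 1.2, 1.04 and 0.785%. Without an unlabelled library a sequence difference from the reference and label cannot be told apart for such genes.

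Heat shock genes had high T-to-C rates in every preparation. Their 15 genes had a median T-to-C rate of 0.966, 1.43 and 1.48%, against 0.0957, 0.107 and 0.139% over all 1483 genes. In 15 of 15 the rate after FACS and ice exceeded that after dissociation, beside 65.7% of all genes. Of the lists, only the Notch pathway, with 2 genes above the limit in each library, had a higher median rate, 1.37, 1.98 and 1.74%. The inducible genes had high rates already after dissociation: dnajb1b 3.38, 3.78 and 4.16%, hsp90aa1.2 3.15, 3.02 and 3.95%, hsp70l 2.47, 3.22 and 3.0% and hsp70.1 1.72, 2.49 and 2.84%. The constitutive hspa8 (0.154, 0.166 and 0.172%) and hsp90ab1 (0.134, 0.119 and 0.138%) stayed within a narrow range. Only 2 of the 15 were over 2-fold higher: hspa4a, a member of the Hsp110 family, at 0.629, 1.64 and 2.43%, and hsp90b1, the Hsp90 of the endoplasmic reticulum, at 0.39, 0.824 and 1.39%.

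Immediate early genes are the first genes that cells transcribe after a stimulus. Their list summed to 813, 738 and 812 rpm in retina and 731, 799 and 864 rpm in the nervous system. The pharynx was highest, with 1831, 3038 and 3319 rpm. Of 62 listed genes 5, 4 and 7 passed 250 reads, beside 1904 of 14980, 1649 of 12424 and 1913 of 15884 retina genes. The median level ratio of the 3 present in every library was 0.965 after FACS and ice. Their T-to-C rates were high against most genes: 1.08, 1.43 and 1.91% for btg1, an antiproliferative gene, 0.592, 1.05 and 1.16% for ier5 and 0.325, 0.937 and 0.572% for mcl1a, a survival gene of the Bcl-2 family. All 3 had their lowest rate after dissociation. The AP-1 gene jun passed in the last library only, with 124, 117 and 269 reads and a rate of 0.832, 1.57 and 1.26%. The classic gene fosab stayed below the limit with 69, 21 and 91 reads.

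**Figure D3:**
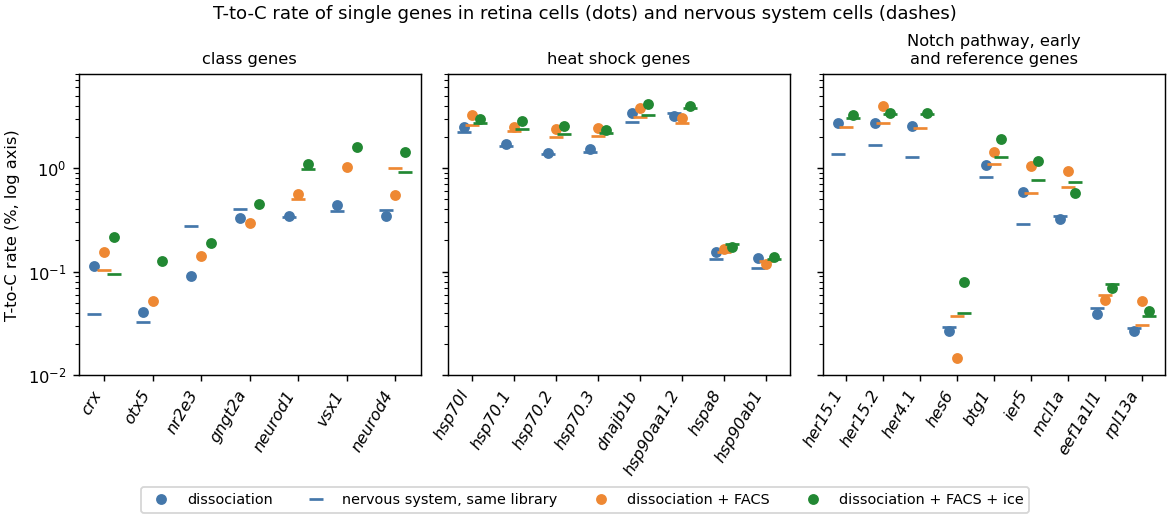
T-to-C rate in percent on a log axis for single genes in retina (dots) and in the nervous system (dashes), with 1 colour per library and a mark only where the table had at least 250 reads. The rates of vsx1, neurod1 and neurod4 are highest after FACS and ice, the inducible heat shock genes lie above 1% in every library, and hspa8, eef1a1l1 and rpl13a lie low throughout.

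A gene was called highly labelled at 250 or more reads and 10 or more labelled entries per 100 reads. This follows the study's limit, a 10% share of reads with 2 or more labelling events. Entries and reads differ in unit, so the limits need not match. In retina 12 of 1889 genes (0.635%) passed after dissociation, 7 of 1636 (0.428%) after FACS and 17 of 1900 (0.895%) after FACS and ice. Together they were 22 genes, 4 of them in every library: hbae1, an embryonic globin gene, her15.2, hist1h2a2, a histone gene, and hsp70.2. No gene of the photoreceptor or bipolar lists passed, and the highest of vsx1 was 4.4 entries per 100 reads. By list, Notch pathway genes gave 2, 1 and 4 and heat shock genes 1, 2 and 5. The Notch targets her15.1, her15.2 and her4.1 are repressors that hold neural progenitors undifferentiated, and her15.1 had 39.1, 42.1 and 39.3 entries per 100 reads. Its rate was 2.69, 4.19 and 3.25%, while the level was lower in retina (39.2, 16.0 and 71.5 rpm) than in the nervous system (152, 242 and 194 rpm). The FACS values of her15.1 in retina rest on 133 reads, under the limit. The largest share after FACS and ice was that of hbae1 (42.6), which belongs to blood and shares reads with other globin genes. Next came her15.1, her4.2 (34.8), her15.2 (31.8) and the unnamed BX530077.1 (28.1). They were followed by pclaf, a clamp-associated factor of replication, hsp70.1 (20.0), hsp70.2, hist1h2a2 and hsp70l (13.9). For pclaf the rate was 5.99, 6.61 and 5.69% in retina and 6.03, 6.02 and 6.01% in the nervous system, and for the ribosomal gene rps15a, highly labelled in 2 libraries, 3.2, 2.92 and 3.48%, values that hardly moved with handling. After dissociation pclaf had 186 retina reads, under the limit. Of the 17 genes after FACS and ice, olig2, an oligodendrocyte and motor neuron factor, was the 1 that reached the limit in no other cell type with 250 reads, and 1 other type had that many. In retina olig2 lay exactly at the limit, with 29 entries for 290 reads.

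Labelled entries and reads do not count the same unit, and the libraries differed in that respect. Reads of all tables per UMI of all cells were 3.86, 8.71 and 3.34 (dissociation, FACS, FACS and ice), and the FACS library had the fewest cells. Between dissociation and FACS the T-to-C rate was higher for 807 of 1483 genes, while the entries per 100 reads were higher for 265 and lower for 674. For dnajb1b the rate was higher after FACS and the entries fewer, 9.29, 2.39 and 10.7 per 100 reads. The part of the read depth in this was not tested, and the count of 7 genes after FACS should be read beside it.

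No gene passed the test for a difference in labelling between the retina and the nervous system. The T-to-C rate was compared over 1440 genes with at least 250 reads in the retina and nervous system tables of all libraries with limma and library as a block, on log2(rate + 0.05%), which understates differences of low rates. With Benjamini-Hochberg adjustment 0 genes were higher and 0 lower in retina (0% each way), and the smallest adjusted p was 0.546. Unadjusted p was under 0.05 for 102 genes, 47 higher and 55 lower, and the median log2 difference was 0.0059. Differences were simulated in 200 of the 1440 genes, as 2-fold or 4-fold shifts of the rate + 0.05%. They were recovered for 67 and 87% of changed genes, with 10 calls among unchanged genes. A real rate cannot be negative, so the rate + 0.05% cannot fall under 0.05%. Large drops of this sum cannot occur for genes of low rate. The share of real differences that the fit would recover was not tested. With fewer genes changed the adjustment is stricter, so differences of these sizes could also have been missed. Median rates over these genes were 0.0938, 0.104 and 0.137% in retina and 0.0952, 0.104 and 0.131% in the nervous system.

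Genes with the smallest p, none of which passed, are given as a description. Choice by p favours genes with the same direction in all libraries. Higher in retina were fam168b, supt6h (a transcription elongation factor), ier5, mid1ip1b and sat1a.2 (polyamine catabolism). For ier5 the rate was 0.592, 1.05 and 1.16% in retina and 0.291, 0.577 and 0.766% in the nervous system (log2 difference 0.76, SE 0.12, adjusted p = 0.546 by limma), higher in 3 of 3 libraries. Lower in retina were si:ch73-28h20.1, ctnnb1 (beta-catenin), ube2nb, rbm25b and unc119b, a lipid-binding gene of photoreceptors. The retina-enriched si:ch73-28h20.1 had 0.326, 0.358 and 0.401% in retina and 0.716, 0.715 and 0.749% in the nervous system (log2 difference -0.92, SE 0.10, adjusted p = 0.546 by limma), lower in 3 of 3 libraries. Of the markers, crx was tested at a log2 difference 0.72, SE 0.14 (adjusted p = 0.546 by limma) and neurod4 at a log2 difference -0.12, SE 0.32 (adjusted p = 0.981 by limma; 0.22 without the FACS library), while vsx1 and otx5 had too few nervous system reads. Of the 15 heat shock genes 12 had positive differences, with a median of 0.08 on the log2 scale, of 12 cell cycle genes 10, of 6 proneural genes 5 and of 12 reference genes 6, beside 740 of all 1440 genes. No gene of these lists was called.

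**Figure D4:**
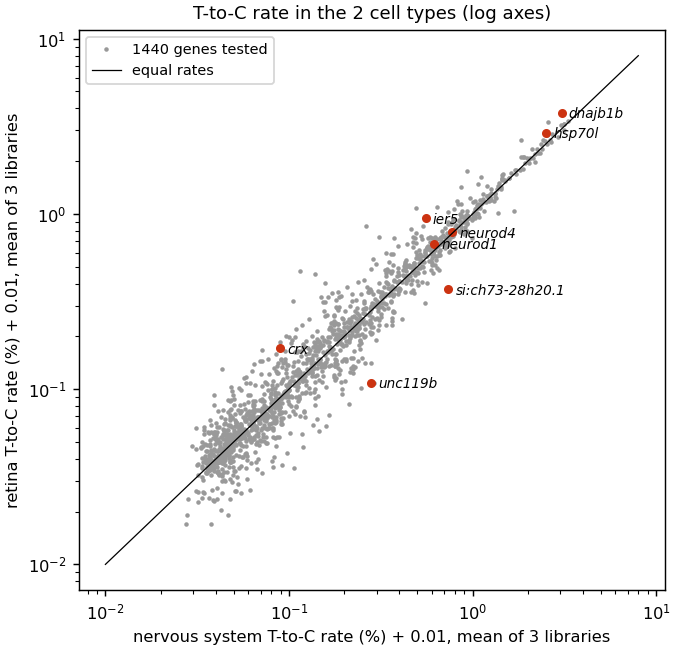
T-to-C rate of the 1440 tested genes in retina against the nervous system, in percent plus 0.01 on log axes, each the mean of 3 libraries, with the line of equal rates and 8 genes named in red. Heat shock genes lie at the upper end near the line, and si:ch73-28h20.1 and unc119b lie below it.

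Against all other cell types no gene passed either. Over 344 genes with at least 250 reads in all 36 tables of the 12 shared types, limma with library as a block called 0 genes higher and 0 lower in retina than in the mean of the other 11 (0%), with 31 genes at an unadjusted p under 0.05, 23 higher and 8 lower. The smallest adjusted p was 0.0815, for tmsb4x (thymosin beta 4, which binds actin), at 0.0496, 0.0774 and 0.0821% in retina against 0.0365, 0.0545 and 0.0638%, higher in 3 of 3 libraries. Medians of these genes in retina were 0.0564, 0.0665 and 0.0728%, rank 3, 1 and 3 of 12, and their A-to-G medians ranked 5, 1 and 1. The second measure, labelled entries per 100 reads, gave 0 higher and 0 lower of 1440 genes against the nervous system (0%), with the smallest adjusted p of 0.513 and 104 genes at an unadjusted p under 0.05, 40 higher and 64 lower. In the simulation this measure recovered only 40% of 2-fold and 45% of 4-fold shifts of the share + 0.1. This sum cannot fall under 0.1, so large drops cannot occur for genes with few labelled entries. For this measure, too, the recovery of real differences was not tested.

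In single cells, inducible heat shock genes were again among the most often labelled. Of all gene detections in marker-positive cells, a gene in a cell being 1 detection, 3.24, 4.2 and 4.86% were labelled, against 2.76, 3.69 and 4.04% in the other cells of each library. Marker-positive cells were deeper, at 4594.5, 3574 and 5530 median UMIs against 2402, 3143 and 3995 over all cells. The part of depth in this difference was not tested. The marker rule also met 3.16, 2.32 and 3.34% of blood cells, so not all marker-positive cells need be retina. The share of cells with a labelled transcript of vsx1, among the marker-positive cells in which the deposited lists of genes per cell hold that gene, was 9.3% (6.45 to 12.9%, 32 of 344 cells) after dissociation, 18.4% (12.4 to 25.8%, 26 of 141 cells) after FACS and 21.9% (18.0 to 26.3%, 88 of 401 cells) after FACS and ice. For neurod4 the shares were 4.98, 5.64 and 11.1%, for neurod1 3.96, 4.26 and 13.6% and for crx 0.808, 1.28 and 1.98%. Inducible heat shock genes had larger shares, with 61.6, 72.9 and 82.3% for hsp70l, 45.2, 67.3 and 75% for hsp70.1 and 34.7, 44.6 and 63.3% for dnajb1b. Such shares grow with the UMIs of a gene per cell, and the level of hsp70l in these cells was 553, 1041 and 1171 UMIs per 1000000 UMIs. The replication gene pcna was labelled in 3.55, 5.65 and 11.1% and hspa8 in 8.82, 8.97 and 17.0% of cells with the gene.

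**Figure D5:**
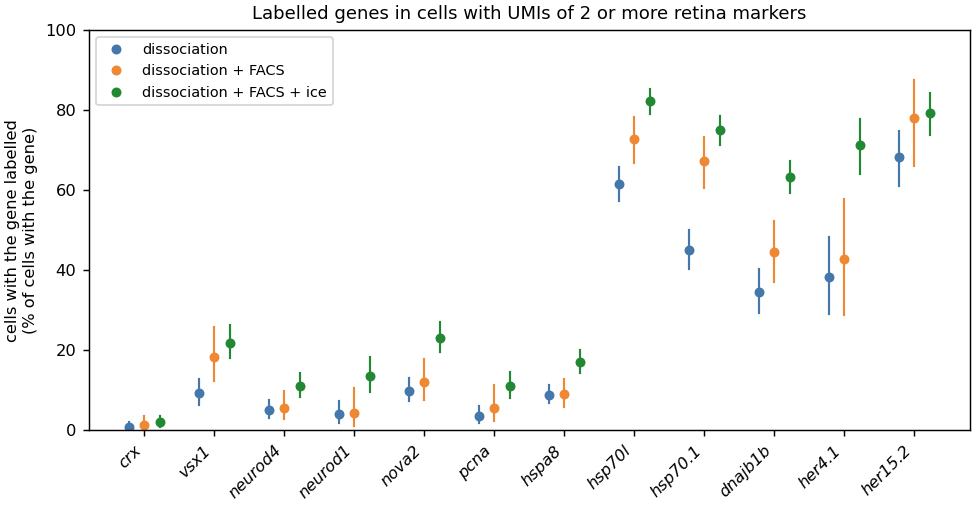
Share of marker-positive cells with a given gene in which that gene was labelled, in percent, for 12 genes and 3 libraries, with bars for the exact 95% binomial interval. The inducible heat shock and her genes lie highest, hsp70l from 61.6 to 82.3%, while hspa8 lies below vsx1 and crx stays under 2% in each library.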

How the data were processed

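Single-cell libraries of 4sU-labelled zebrafish larvae, 1 for each of 3 preparations, were used, and groups were taken from the sample labels. The authors aligned the reads with Cell Ranger 6.1.1 to the GRCz10 build, added mismatch tags with SAMtools 1.14 and called substitutions at a base quality of at least 20. For each annotated cell type they deposited read counts per gene and, as a ratio, the rate of each of the 12 substitution types, averaged over reads, for all reads and for labelled reads (2 or more T-to-C). They also deposited UMI counts per cell and the labelled genes of each cell. A filter for sequence variants was stated for bulk data and not for these tables.

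Retina tables held 8338350, 8309106 and 8474378 reads after dissociation, FACS, and FACS and ice. Genes needed 250 reads; names that join several genes (1.20, 1.16 and 1.10% of retina reads) were left out of counts of calls. T-to-C rates on log2(rate + 0.05%) and labelled entries per 100 reads on log2(share + 0.1) were compared between cell types in limma 3.58.1 (R 4.3.3) with library as a term and Benjamini-Hochberg adjustment, called at an adjusted p of 0.05. That model was tested on simulated data. TMM factors came from edgeR 4.0.16. Levels between libraries had no test. Intervals were exact Poisson or Clopper-Pearson. Python 3.11.15, pandas 2.3.3, numpy 2.4.6, scipy 1.17.1 and matplotlib 3.10.9 were used.

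Named genes were the 4 markers, the genes with most reads of each of 26 lists, the 10 largest labelled shares after FACS and ice, the 10 largest ratios to the highest other type, the 5 largest and 5 smallest level ratios, the 5 higher and 5 lower with the smallest p, and stress genes above the limit; rho, arr3a, gnat1, gngt1, sagb, rps15a, olig2, fosab, bhlhe22, isl1 and six7 were named after their values were seen. The members and lists were chosen with earlier results of these data known. Promoter motifs were not analysed here, and alternatives are given in the closing section.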

Additional observations from a re-analysis of the deposited data

Results flagged for a closer look

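In all, 5 level ratios of retina and nervous system pointed in opposite directions, each past 1.5-fold in both cell types of the same libraries. With 1 library per preparation the difference between the cell types was not tested for any of them. The replication factor gene pclaf was 1.60-fold of its dissociation level in retina after FACS and 2.2-fold after FACS and ice, against 0.381-fold and 0.477-fold in the nervous system, and it had 186, 297 and 416 retina reads. The neuronal gene elavl4 was 0.647-fold in retina after FACS and 1.70-fold in the nervous system. For her15.1, a Notch target with 327 and 133 retina reads, the ratio after FACS was 0.408 in retina and 1.59 in the nervous system. The globin gene hbbe1.1 was 0.436-fold in retina and 4.37-fold in the nervous system after FACS.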

How the results depend on the processing

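Of 385 values under other settings, 321 stayed the same, 50 moved, 2 single genes came past the threshold and 12 differences of single genes, none of them called, changed sign. Single genes stayed the same if they kept their direction and side of the threshold. Medians and shares did so inside the interval of the main value, and counts within 1.5-fold of the main count. Without one library the log2 difference of neurod4 from the nervous system was -0.50 to 0.22 for the T-to-C rate and -0.19 to 0.08 for labelled entries, positive without FACS (0.22 and 0.083). With A-to-G in place of T-to-C the differences were -0.089 for fam168b, -0.027 for supt6h, -0.080 for ier5, 0.19 for si:ch73-28h20.1, 0.14 for ctnnb1 and 0.066 for neurod4 against the nervous system, and -0.0023 for eif3ea, -0.020 for tomm20b, -0.019 for tuba1a and 0.062 for rplp2 against the other types. Median T-to-C rates (0.104, 0.114 and 0.160% after dissociation, FACS, and FACS and ice) were 0.139, 0.149 and 0.230% with 100 reads, 0.0604, 0.0712 and 0.0876% with 1000 reads, 0.286, 0.319 and 0.349% as read-weighted means, and 0.0122, 0.0135 and 0.0393% after subtracting A-to-G; after FACS and ice, common genes gave 0.139%. Every version kept the order of the libraries. Highly labelled genes (12, 7 and 17) numbered 24, 13 and 36 with 100 reads, 4, 3 and 11 with 500 reads, 30, 13 and 49 at 5%, 4, 2 and 7 at 20%, and 11 after FACS with joined names kept. Labelled entries over reads were 0.411, 0.466 and 0.632%, and 0.264, 0.147 and 0.450% without haemoglobin genes, which puts the FACS library lowest; over genes above the limit they were 0.382 and 0.585% after dissociation and after FACS and ice. Genes past 1.5-fold after FACS (50 higher, 163 lower) were 91 and 88 with TMM scaling, 158 and 465 with 100 reads, and 16 and 29 past 2-fold; after FACS and ice (97 and 90) they were 306 and 231 with 100 reads and 22 and 23 past 2-fold. Against the other cell types 1 gene was called higher in place of 0 with 1000 reads, tmsb4x (adjusted p = 0.0198 by limma), and 1 when A-to-G replaced T-to-C, mgst3b. No setting, and no leave-one-out fit, gave a call against the nervous system. Marker-positive cells (5.85, 6.49 and 7.15%) were 2.16, 2.21 and 3.03% with 3 of 4 markers, 5.07% after dissociation with 3 UMIs, and 1.80, 2.05 and 1.86% when thinned. The cause of these shifts was not tested beyond the construction of each setting. No paired analysis between preparations was possible because each group has 1 library, so the groups share fewer than 2 replicate numbers. Genes of few reads limit the rates: at 250 reads, 3 labelled entries already amount to over 1 per 100 reads.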
